A study of Mus musculus with 13 samples.

Results

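The HSF1-inducible heat shock genes examined here were Hspa1a, Hspa1b, Hsph1, Hsp90aa1, Hsp90ab1, Dnajb1, Hspb1, Hspe1, Bag3 and Hspa8, and all 10 were among the 11779 genes listed for mouse liver. They were chosen by gene symbol from a list drawn up with the authors' liver comparison already known, so their behaviour in that comparison had a part in the choice and their levels are given as a description. RNA had been sequenced from the livers of 3 Balb/c mice given a GalNAc-conjugated mix of antisense oligonucleotides (ASOs) against the lncRNA LL35 and of 3 Balb/c mice given a GalNAc-conjugated ASO against firefly luciferase (Luc), all collected on day 5 after a tail vein injection of 150 mg/kg. The labels give this dose for each ASO, the methods give it in total, and neither states one for the Luc ASO separately. The sources also differ on how many ASOs the liver mix held. GalNAc is a sugar that directs a conjugate to hepatocytes, and every mouse carried a conjugated ASO, so no untreated liver was included. Another 7 samples of the hepatocyte line AML12 were not analysed here. Each gene has 1 value, the authors' mean normalized count over the compared liver libraries, with both ASO groups pooled. No difference between LL35 ASO and Luc ASO livers is therefore given, no value carries an error, and the depth of the libraries is unknown.

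HSF1 is a transcription factor that is held inactive by chaperones in unstressed cells. When unfolded proteins draw these chaperones away, HSF1 forms trimers, enters the nucleus and binds heat shock elements, which are runs of short inverted repeats near the start of its target genes. The targets encode chaperones of the HSP70, HSP90, HSP60/HSP10 and small heat shock protein classes and their helpers, which fold, hold or hand on damaged proteins. Some of these genes, such as Hspa1a and Hspa1b, are mainly known for their induction by stress, whereas Hspa8 and Hsp90ab1 are also transcribed at all times for the everyday folding of new proteins.

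The stretches below are shown because they hold runs of this repeat, exact or with 1 mismatch. RefSeq windows from 250 bases before to 50 bases after the start site, on the build GRCm38.p6, were found for 7 of the 10 genes, in 9 windows because Hsph1 and Dnajb1 have a pair of start sites each. Hspa8, Hsp90aa1 and Hsp90ab1 had no window. Each stretch is printed 5′ to 3′ on the strand of the gene, and capitals mark the letters of the repeat that match, where GAA and TTC alternate with any 2 bases between them, either as 2 exact units or as 3 units with at most 1 mismatch among their 9 letters. Positions are counted from the start site and are negative before it.
Hspe1, chr1:55088048-55088087, plus strand, positions -100 to -61: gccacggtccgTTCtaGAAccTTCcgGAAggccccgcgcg
Hsph1, chr5:149636342-149636381, minus strand, positions -45 to -6: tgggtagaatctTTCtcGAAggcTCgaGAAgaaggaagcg
Hsph1, chr5:149636287-149636310, minus strand, positions 27 to 50: atgctGcAgaTTCtgGAAagTTCt
Hspa1a, chr17:34972237-34972276, minus strand, positions -120 to -81: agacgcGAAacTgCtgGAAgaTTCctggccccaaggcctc
Hspa1b, chr17:34959319-34959358, minus strand, positions -120 to -81: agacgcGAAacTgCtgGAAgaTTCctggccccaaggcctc
Hspb1, chr5:135887799-135887838, plus strand, positions -120 to -81: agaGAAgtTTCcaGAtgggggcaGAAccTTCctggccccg

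An exact run of 3 inverted units was present in 2 of the 7 genes, Hspe1 and Hsph1, in 3 of the 9 windows. Among all 32851 promoter windows of the same length, 0.603% held such a run on either strand. Hspe1 encodes the HSP10 lid of the mitochondrial HSP60 chaperonin, and its overlapping exact matches ran from position -89 to -72. In Hsph1, which encodes an HSP110 protein that exchanges nucleotide on HSP70, the exact run lay at positions 37 to 49 from the upstream start site, and overlapping runs with 1 mismatch lay at positions -33 to -16. With 1 mismatch allowed, Hspa1a, Hspa1b and Hspb1 were added. A run was then held by 5 of the 7 genes, in 6 of the 9 windows. The share was 7.22% over all windows and 5.57% over those of listed liver genes. In Hspa1a and Hspa1b, the stress-inducible HSP70 pair, overlapping runs lay at positions -114 to -97. An exact pair of units, the least strict form, was found in 6 of the 7 genes, in 7 of the 9 windows. It was in 15.1% of all windows and 12.0% of those of listed liver genes. For Bag3, a co-chaperone that couples HSP70 to small heat shock proteins, the pair was at positions 43 to 50. Neither Dnajb1 window held any of the 3 forms, which says only that these letters are not in the windows searched.

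Of the other short promoter boxes searched, only the GC box was shared more widely. The GC box GGGCGG occurred on either strand in all 7 genes and in 35.7% of all windows, although 61.0% of the windows of listed liver genes held it too. The CCAAT box was found in 4 genes, Hspa1a, Hspa1b, Hsph1 and Dnajb1, in 5 of the 9 windows, and in 37.4% of all windows. The letters TATAAA were in none of the 9 windows and in 13.6% of all windows, or 7.67% of those of listed liver genes. The 250 bases before the start were 59.2% to 72.8% G or C in these genes, highest in Hspe1, against a median of 52.4% over all windows. The median over windows of listed liver genes was not computed, so this is not shown to be particular to these genes. These matches describe the sequences and were not measured as binding sites.

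**Figure D1:**
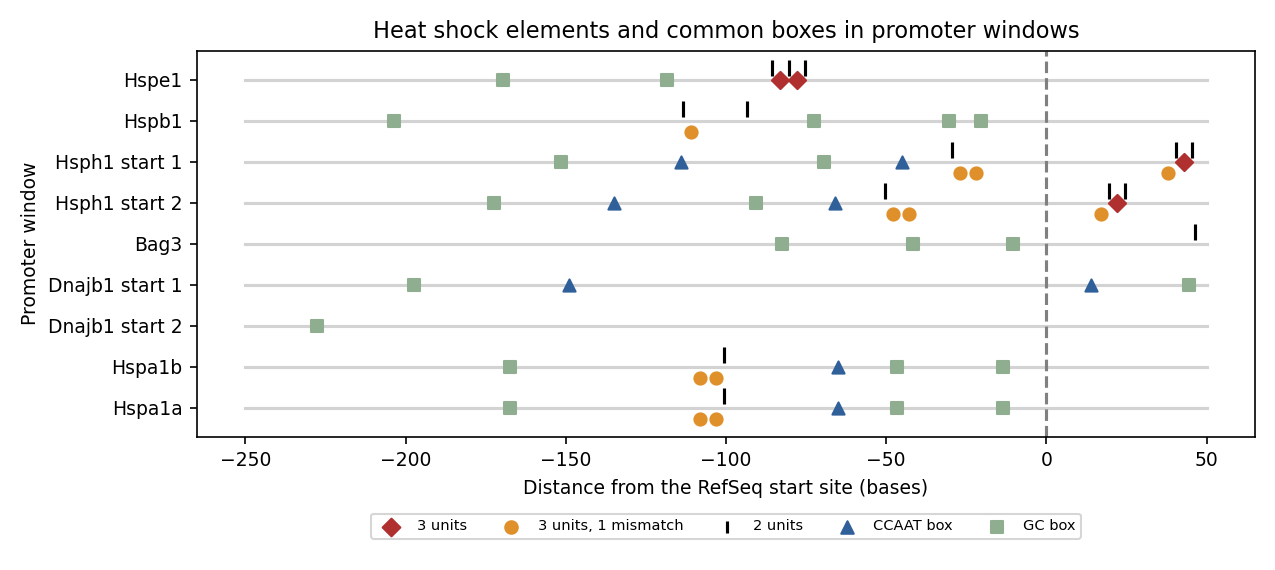
Position of each motif match in the 9 promoter windows (1 row per window), in bases from the RefSeq start site, marked by a dashed line; circles are 3-unit runs with 1 mismatch, ticks 2 units, triangles CCAAT boxes and squares GC boxes. The exact 3-unit runs (diamonds) appear in Hspe1 upstream of the start and in both Hsph1 windows downstream of it, and the Hspa1a and Hspa1b rows look alike.

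The members differed widely in level. Per kilobase of mRNA (the length of the gene's coding transcript in GENCODE release M21), their mean normalized counts ran from 22.0 for Hspb1 to 4681 for Hsp90ab1, a ratio of 213. The ratio of these 2 genes was 593 without length and 85.0 per kilobase of sequence with no copy in another annotated gene (unique windows of 50 bases). The median over the 10 genes was 429, against 80.9 over the 11754 listed genes with a transcript length. Above that median lay 8 of the 10, and 5 were in the top 10% of listed genes. These are levels in whole liver, where fewer cells of a type and less RNA per cell cannot be told apart.

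The constitutively transcribed chaperones stood at the top. Hsp90ab1, the beta form of cytosolic HSP90, which matures kinases and steroid receptors, had a mean normalized count of 11796, or 4681 per kilobase, and ranked 119 among the listed genes. Hspa8, the cognate HSP70 of the cytosol, followed with a mean normalized count of 5773 and 2412 per kilobase, at rank 240. Together these 2 genes made up 72.2% of the summed level per kilobase of the 10 members. Both lay far above the stress-inducible pair, with Hspa8 at 20.7 times the level per kilobase of Hspa1b and 96.2 times that of Hspa1a. On the other length scales these ratios ran from 11.5 (all annotated exons) to 31.2 (unique windows) for Hspa1b and from 53.6 to 152 for Hspa1a.

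Per kilobase of mRNA, Hspe1, Hsp90aa1 and Hsph1 formed the next group. Hspe1 had a mean normalized count of 699 on a short mRNA of 774 bases, which gives 904 per kilobase. Its ratio to Bag3 was 3.32 on this scale, but 1.00 without length and 1.74 per kilobase of all annotated exons. The stress-responsive alpha form of HSP90, Hsp90aa1, had a mean normalized count of 2195 and 669 per kilobase, so Hsp90ab1 was 7.00 times higher on this scale. Hsph1 had a mean normalized count of 2227 and 586 per kilobase. Hsp90aa1 and Hsph1 were close, with a ratio of 1.14 per kilobase and 0.985 without length. The ratio was 1.82 per kilobase of all annotated exons and 2.76 per kilobase of unique windows, and no spread between mice is at hand to order them.

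Bag3, Dnajb1 and Hspa1b lay nearer to the typical listed gene. Bag3 had a mean normalized count of 698, or 273 per kilobase, which is 3.37 times the median of listed genes. Dnajb1, the J-domain protein that stimulates ATP hydrolysis by HSP70, had a mean normalized count of 417, or 139 per kilobase. Hspa1b reached a mean normalized count of 326, or 116 per kilobase, and was higher than or equal to 60.5% of listed genes. Whether stress had a part in this level was not tested. Bag3 exceeded Dnajb1 by a factor of 1.96 per kilobase of mRNA, but per kilobase of coding sequence the ratio was 0.988, since Dnajb1 has a long 3′ UTR.

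At the bottom were Hspa1a and Hspb1, the only members under the median of listed genes. Hspa1a had a mean normalized count of 74.4, or 25.1 per kilobase, and its near-identical neighbour Hspa1b was 4.64 times higher on the latter scale. Hspb1, a small heat shock protein (HSP25 in mice) that holds unfolded proteins until HSP70 takes them over, had a mean normalized count of 19.9. That is close to the lowest value in the table, 15.6, and the only member under 50.

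**Figure D2:**
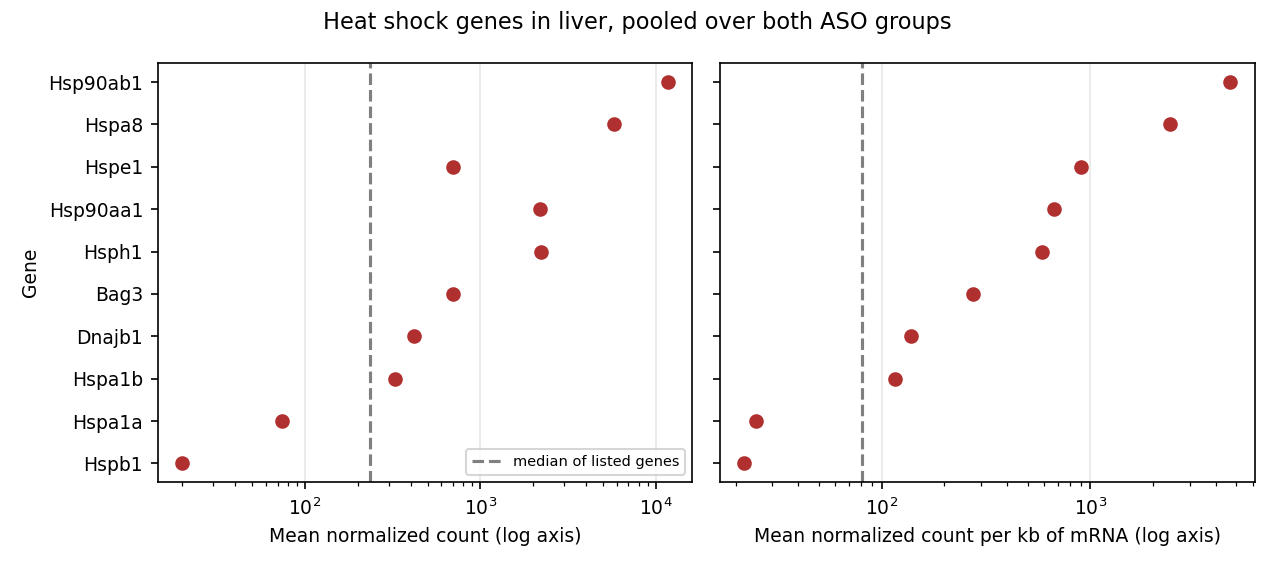
Mean normalized count of each gene (left) and the same per kilobase of mRNA (right), on log axes, as 1 point per gene pooled by the authors over both ASO groups; no error can be drawn. The dashed line is the median of listed genes, and only Hspa1a and Hspb1 lie to the left of it in both panels.

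Copies elsewhere in the annotation bear on how these levels can be read. According to the methods, the authors counted reads with STAR's gene count mode, which leaves out reads that map to more than 1 place. Each member's transcript was therefore divided into windows of 50 bases, and the share with no identical window in another annotated gene at a different place was computed on either strand. At least 95% of windows were unique in 4 members, Hsph1 and Bag3 with 100% each, Dnajb1 with 99.6% and Hsp90ab1 with 95.5%. In the other 6 the share ran from 25.2% in Hspa8 to 63.9% in Hspe1. The length of the sequenced reads is not clear from the sources used here, and with windows of 100 bases the same 6 genes had 36.6% to 79.6%.

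Hspa1a and Hspa1b are mainly copies of each other. Their coding sequences, of 1926 and 1929 bases, were 99.4% identical, with 8 differing bases and 3 bases in gaps, and the encoded proteins had no differing residue and 1 residue in a gap. Their promoter windows matched at 296 of 300 positions, 3 of the 4 differences lying before the start, so the heat shock element printed for one gene is also that of the other. Of the 50-base windows of Hspa1a, 39.7% were unique, and of Hspa1b 37.7%, with 1716 windows shared between the pair. In the 3′ UTRs 100% of windows were unique in both genes, against 15.3% in the coding sequence of Hspa1a and 17.8% in that of Hspa1b. Per kilobase of unique windows, Hspa1b had 314 and Hspa1a 64.3, a ratio of 4.88. This divides the count of the whole gene by its unique windows, 1038 for Hspa1b and 1157 for Hspa1a. The order of the pair was thus set by the counts, and this scale cannot check it.

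Hspa8 had the fewest unique windows of the 10. Its windows recurred in 13 other annotated genes, 12 of them pseudogenes. One of these, the processed pseudogene Gm15459, shared 70.0% of the windows (1642) and was itself listed in liver with a mean normalized count of 3718. The gene that is not a pseudogene, the long noncoding RNA Gm26825, shared nearly as many, 1617, and was not listed. Per kilobase of full length Gm15459 stood at 1916, and the value of Hspa8 was 1.26 times higher. Reads from stretches where Hspa8 and Gm15459 match map to more than 1 place and are left out in this count mode. The ratio is therefore no measure of the relative levels of their transcripts. Per kilobase of unique windows, Hspa8 rose to 9786 and took first place ahead of Hsp90ab1 with 4998. This scale divides the count of the whole gene by the unique windows of 1 transcript. Reads from its other exons can therefore raise the value. Per kilobase of all annotated exons, Hsp90ab1 led with 3933 against 1342 for Hspa8. In contrast to the stretch-by-stretch identity with Gm15459, Hspa8 and Hspa1a differ more as genes, with 74.1% of aligned coding bases and 84.5% of residues identical.

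The HSP90 pair differed in the same respect. In Hsp90aa1, 41.5% of windows were unique and the rest recurred in 4 pseudogenes, led by Gm12346 with 1664 shared windows, none of them listed in liver. Hsp90ab1 shared few windows with its 6 pseudogenes, of which Gm6368 was listed with a mean normalized count of 77.9 and Gm9403 with 16.6. Per kilobase of unique windows, the ratio of Hsp90ab1 to Hsp90aa1 was 3.05. The 2 HSP90 genes were 75.7% identical over aligned coding bases and 85.9% over residues. For Hspb1, 503 of 854 windows were shared with the pseudogene Hsp25-ps1, and for Hspe1, 255 of 725 were shared with AC117239.2, which is annotated as protein-coding. Hspe1 also overlaps its partner gene Hspd1 on the opposite strand over 63 windows, and Hspa1a overlaps Gm20481 on the opposite strand over 472. The strand setting of the count is not given in the sources used here, and without strand such reads cannot be told apart.

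**Figure D3:**
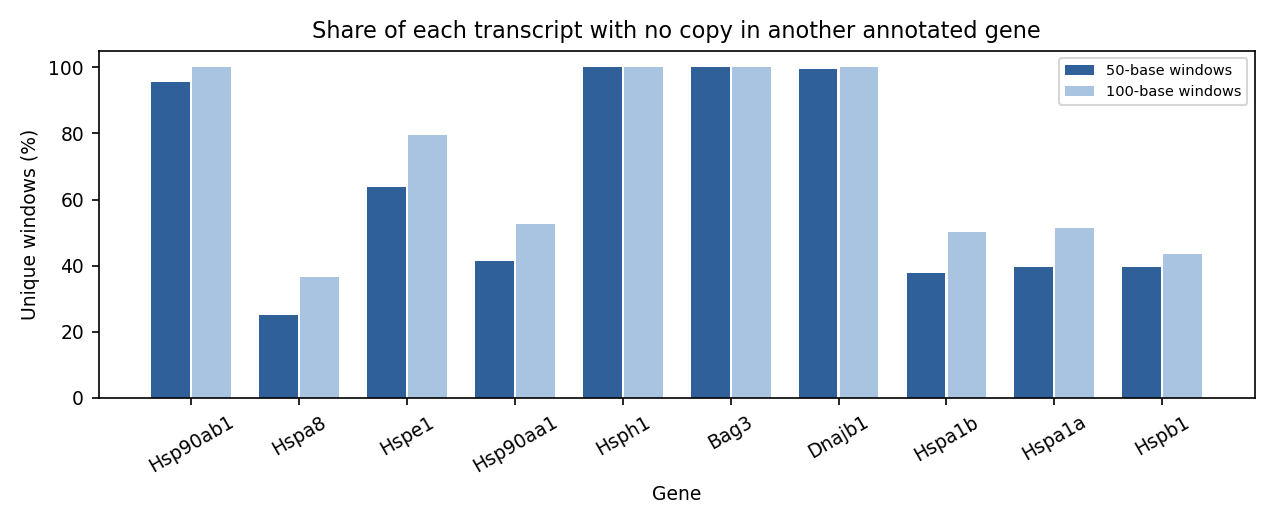
Share of each gene's transcript windows, in percent, with no identical window in another annotated gene at a different place, for windows of 50 bases (dark bars) and 100 bases (light bars), genes ordered by level per kilobase. Hsph1, Bag3 and Dnajb1 are at or near 100%, and Hspa8 has the lowest bars, 25.2% and 36.6%.

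The wider chaperone network gives the levels a frame, described per kilobase of mRNA. All 6 genes for heat shock factors and regulators of HSF1 were listed, with a median of 138, from 31.6 for Hsf4 to 325 for Hsbp1, whose product binds HSF1, and Hsf1 itself stood at 131. Of 11 other HSP70 family genes 10 were listed, 5 of them above the median of listed genes, from 5.45 for Hspa12a to 3720 for Hspa5, the HSP70 of the endoplasmic reticulum, and Hspa9, the mitochondrial HSP70, had 2155. Hspa5, Hsp90ab1 and the endoplasmic reticulum HSP90 gene Hsp90b1, at 4221, were thus within a narrow range, whereas the mitochondrial HSP90 gene Trap1 had 613.

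The partners of the members were mostly well represented. Hspd1, the HSP60 partner of Hspe1, had 1729 per kilobase, and all 9 chaperonin genes lay above the median of listed genes, the lowest being Cct4 at 348. Of the 14 other J-domain genes, all listed, 10 lay above that median, from 16.7 for Dnaja4 to 787 for Dnajc3. Of the 10 co-chaperones of HSP90 and HSP70, 9 lay above the median. The highest was Fkbp5, an immunophilin of steroid receptor complexes, with 1193. The lowest was Cdc37, a kinase adaptor, with 80.3 on a transcript of 7851 bases. Without length, Cdc37 had 630, above the median of 235 over listed genes, and Hspbp1 was lowest with 167. Per kilobase, 4 of the 5 other BAG genes lay above the median of listed genes, with Bag1 highest at 412 and Bag2 lowest at 8.65. Among 7 other small heat shock protein genes 3 were listed, with Cryab lowest at 17.4, and Hspb8, the partner of Bag3, stood at 1291 against 22.0 for Hspb1. The remaining HSF1 targets ran from 44.2 for the collagen chaperone gene Serpinh1 to 6102 for the metallothionein gene Mt1.

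The tissue label was checked against markers. All 7 hepatocyte markers were listed, from 6369 per kilobase for Serpina1a to 598560 for Alb. The highest markers of other cell types were Dcn at 881 for stellate cells, Clec4f at 791 for Kupffer cells, Hba-a1 at 452 for erythroid cells and Stab2 at 264 for endothelial cells. These lists were mixed. Their lowest listed markers were Des at 17.1, Adgre1 at 59.9, Hbb-bt at 60.9 and Lyve1 at 41.8, under the median of 80.9 over listed genes. The erythroid markers Hbb-bs and Hba-a2 were not listed. Markers of cholangiocytes, T and B cells and neutrophils were low or not listed, with S100a8 at 47.3, S100a9 at 36.2, Cd3e at 12.7 and Sox9 at 9.94. The levels above are for whole liver, and the part of each cell type in them was not tested. LL35 (9030622O22Rik) was not among the listed genes, so its knockdown could not be checked.

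**Figure D4:**
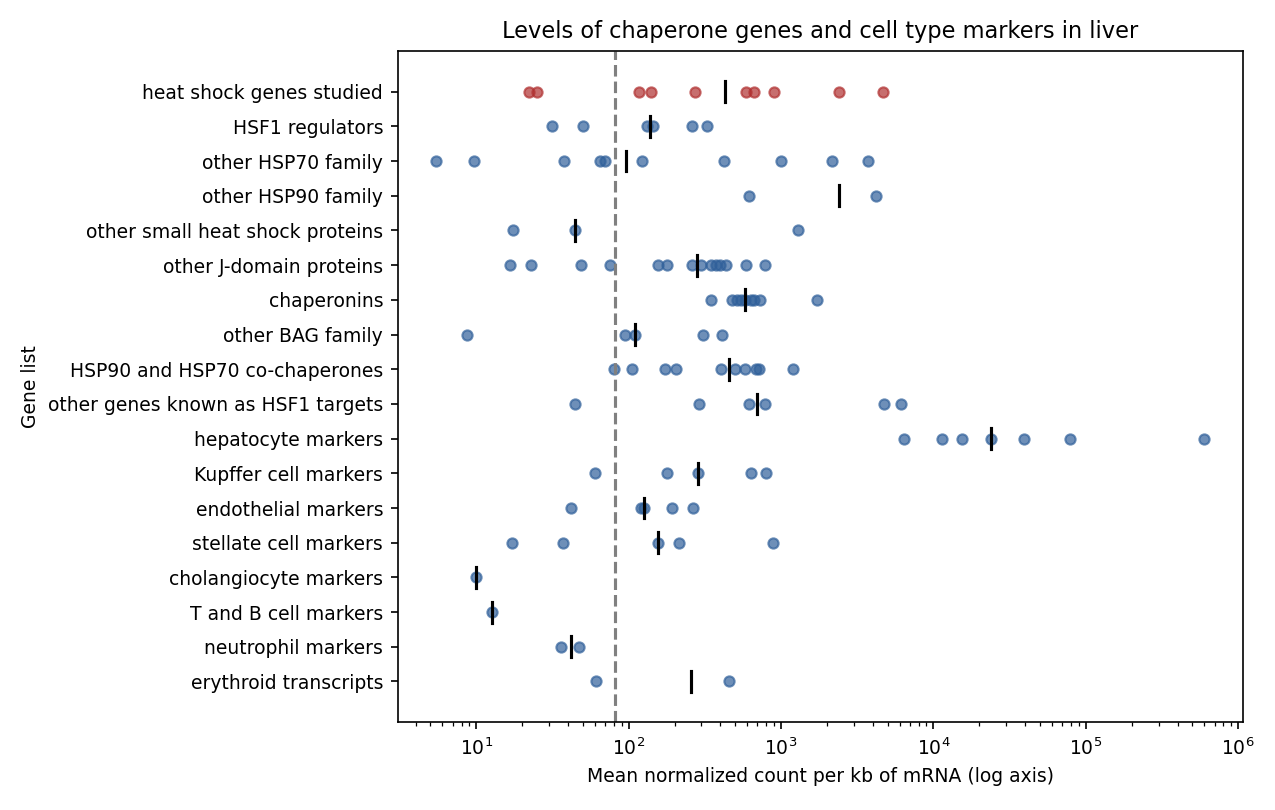
Mean normalized count per kilobase of mRNA (log axis) for the 10 heat shock genes (red, top row) and for each listed gene of the chaperone and cell type lists (blue), with a black bar at each list's median and a dashed line at the median of listed genes. The 10 heat shock genes run from 22.0 to 4681, and all lie below the 7 hepatocyte markers.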

How the data were processed

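Liver RNA libraries were made by the authors from total RNA with rRNA depletion and a directional NEBNext Ultra II kit. According to the methods and the submitters' processing notes, the authors aligned reads with STAR 2.5.3a in gene count mode on an Ensembl annotation and normalized counts by the RLE method of DESeq2. The genome build is not given in the sources used here. The authors' deposited table holds, as a signal, the mean normalized count of each gene over the compared liver libraries. A further 5 value columns hold the result of testing LL35 ASO against Luc ASO livers (fold change, its error, statistic, p-values). They were not used, so no test was run and no count tool was applied. Reads per mouse, and so the precision of each value, are unknown.

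Values were divided by the length of the protein-coding transcript with the longest coding sequence in GENCODE release M21, which matched 11754 of 11779 identifiers. Hspa14 occurs in 2 rows, of which the higher was kept. Percentiles are the share of listed genes at or below a value. Promoters came from the RefSeq table on GRCm38.p6. Matches to 3 inverted units, to 3 units with 1 mismatch among the 9 fixed letters, and to 2 units were searched, and each form covers both strands. Windows of 50 and 100 bases were compared with all annotated transcripts. Windows at places outside annotated genes were not searched, and overlapping genes at the same place were not counted as copies. Coding sequences and their translations were aligned globally in Biopython 1.88 (match 1, mismatch -1, gap opening -3, gap extension -1), and the protein table foreseen for this was not used here. The motif search was tested on simulated data. Scripts ran under Python 3.11.15 with pandas 2.3.3, numpy 2.4.6 and matplotlib 3.10.9. The members and lists were chosen with earlier results of these data known. All members were named, and of other lists the highest and lowest genes. Hsf1, Hspa9, the pseudogenes and Gm26825 were named after their values were seen. Also chosen after seeing the data were the 1-mismatch form, the GC, CCAAT and TATAAA boxes, the stretches printed, the transcript used for length and the treatment of overlapping genes.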

Additional observations from a re-analysis of the deposited data

How the results depend on the processing

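The number of genes with a heat shock element moved most with the motif, from 2 of 7 with exact runs of 3 units to 5 with 1 mismatch allowed, a setting chosen after seeing the data, and to 6 with 2 units. Over promoters of listed genes only, the share with exact runs was 0.501% in place of 0.603%. The order of the 10 genes by level changed in 2 places per kilobase of coding sequence, in 2 without length, in 2 per kilobase of all annotated exons and in 7 per kilobase of unique windows, the last 2 scales being added after seeing the data. Hspa1b stayed above Hspa1a by a factor of 4.37 to 4.88 on these length scales, against 4.38 without length. Each scale divides the same counts by similar lengths, so this is no check on reads lost in the windows they share. The pair held 1.44% of the summed level, against 1.18% for Hspa1b alone. When genes under 50 were left out, Hspa1a lay at percentile 9.21 in place of 20.9. Hspe1 fell from percentile 94.1 to 77.6 without length. No paired analysis was possible because the result comes from no test. No replicate could be left out, since the table used holds 1 pooled value per gene.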
